A study of Homo sapiens with 8 samples.

Results

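Dopamine was compared with vehicle in monocultures of human neural cells, using the cells whose names begin with the culture tags 2DMonoAcDop, 2DMonoVehic, 3DMonoAcDop and 3DMonoVehic. Each of the 4 groups had 2 numbered tags, and each tag was treated as 1 sample. The 8 tags held 7081 of the 43693 cells in the series, which has 46 tags in all. Cells were taken by the tag in their names.

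All groups came from H1, an established line of human embryonic stem cells, that had been turned into neural cultures. The 2DMono cultures grew flat and the 3DMono cultures as organoids, a few of which were pooled and opened with papain before barcoding. How the flat cultures were brought into suspension is not given in the sources used here. The series names dopamine, cocaine and morphine as its agents; AcDop was read as dopamine and Vehic as its vehicle, and the letters Ac are not explained. Dose and duration are likewise not given, and nothing says whether the 2 tags of a group were separate cultures. The p-values below therefore measure the spread between tags, which may be technical.

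Dopamine acts through receptors that couple to G proteins. The D1 class (DRD1, DRD5) raises cyclic AMP through the stimulatory G proteins GNAS and GNAL, and the D2 class (DRD2, DRD3, DRD4) lowers it through inhibitory ones. Cyclic AMP activates protein kinase A and the transcription factor CREB, which switches on immediate early genes within minutes to hours, and phosphodiesterases such as PDE10A break it down. Dopamine also oxidises readily in culture medium, so genes of oxidative and protein-folding stress were examined beside the receptor pathway.

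The tags held 317 to 1959 cells each, with 4693413 to 58777178 counts in total and a median of 9163 to 20731 counts per cell. The first 2DMono vehicle tag stood apart, with the most cells, the deepest cells and the highest median share of mitochondrial counts (4.19% against 0.717% to 2.38% in the other tags). The second 3DMono vehicle tag stood apart in another way, with a summed level of 3020 CPM for 8 skeletal muscle markers against 51.7 to 102 CPM elsewhere. CPM here is the count scaled to library size by the trimmed mean of M values (TMM), while marker sums, receptor levels by class and cluster values are scaled by plain totals. Every tag was spread over all 8 sublibraries, and no barcode combination occurred under 2 tags. The same combination occurred in more than 1 sublibrary for 838 cells (11.8%). Neuron markers were plentiful, beside markers of other tissues. The 8 neuron markers summed to 2367 to 3635 CPM in the 8 tags. The 8 pluripotency markers summed to 5.00 to 19.6 CPM and the 8 microglia or macrophage markers to 11.9 to 22.5 CPM. The 8 mesenchymal markers summed to 877 to 1663 CPM in the 2DMono tags and to 284 to 574 in the 3DMono tags. The 8 choroid plexus markers summed to 115 to 882 CPM in the 8 tags.

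Over all cells of a tag, no gene passed the test. Counts were summed per tag and tested with edgeR's quasi-likelihood test, with Benjamini-Hochberg adjustment over 21300 genes and a threshold of 0.05. It called 0 genes (0%) over both formats with format as a block, 0 in 2DMono (0%), 0 in 3DMono (0%) and 0 for the difference between the formats (0%). The lowest adjusted p of edgeR's test was 0.714 over both formats, 0.227 in 2DMono, 0.915 in 3DMono and 1 for the difference. At an unadjusted p under 0.05, 991 genes (4.65%) passed over both formats, 587 (2.76%) in 2DMono, 843 (3.96%) in 3DMono and 517 (2.43%) for the difference. DESeq2's Wald test on the same sums called 12, 14, 19 and 4 genes in those comparisons. A fit without the first 3DMono vehicle tag rests on the second, which held the muscle markers, as its only vehicle of that format. Its calls are therefore given only with the dependence on processing below. Over both formats, the 95% interval of the log2 fold change lay within 1 of 0 for 77.3% of the genes, and the median distance from the estimate to either bound was 0.49. In 2DMono and 3DMono alone, 52.5% and 56.1% of genes were bounded that tightly. The values below are therefore descriptions unless a call is stated.

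The receptors themselves were at the edge of detection. DRD5 had 0 counts in all 8 tags, and DRD1 had 28 counts in all, 15 of them in the first 2DMono vehicle tag, so neither could be tested. DRD2, the inhibitory autoreceptor and striatal receptor, stood at 1.88 and 3.88 CPM in the 2DMono dopamine tags against 1.81 and 1.62 in vehicle, and at 1.38 and 2.43 in the 3DMono dopamine tags against 2.05 and 1.83. The tags were narrowly apart in 2DMono, at 1.88 against 1.81 CPM where closest, and overlapped in 3DMono. In 2DMono 11.5% of all genes had both dopamine tags above both vehicle tags, so such separation by itself is common. The log2 fold change of DRD2 over both formats was 0.37 (95% interval -0.32 to 1.06). DRD4 stood at 2.82 and 5.06 CPM against 3.11 and 2.03 in 2DMono, and at 3.19 and 2.69 against 2.05 and 2.20 in 3DMono. Its log2 fold change was 0.53 (-0.03 to 1.08), and the 3DMono dopamine tags lay above both vehicle tags. DRD3 was the receptor with lower values under dopamine in both formats, 0.706 and 0.970 against 1.25 and 2.03 CPM in 2DMono and 0.345 and 0.960 against 1.06 and 1.37 in 3DMono. Its log2 fold change was -0.78 (-1.61 to 0.05), an interval that held 0.

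By cell class, the D2-class receptors were found in small numbers throughout. In 2DMono, DRD4 gave 124 counts in 1133 astrocyte-like cells (3.38 CPM, exact Poisson interval 2.81 to 4.03), against 17 counts in 624 excitatory neuron-like cells (1.81, 1.06 to 2.90). In 3DMono, DRD2 gave 47 counts in 1113 excitatory neuron-like cells (3.13 CPM, 2.30 to 4.16) and 10 counts in 601 cycling-like cells (1.22, 0.584 to 2.24). These intervals cover counting error only. DRD1 gave 13 counts in the 2DMono astrocyte-like cells (0.355 CPM, 0.189 to 0.606) and 0 counts in the neuron classes of both formats. Genes that make and carry dopamine were as scarce: TH, which makes its precursor, had 21 counts in all tags and SLC6A3, the dopamine transporter, had 27. Of 11 synthesis and transport genes, 7 could be tested, and 0 passed at an unadjusted p under 0.05 in either direction over both formats. Of 9 breakdown genes, 6 could be tested and 0 passed, among them MAOB with a log2 fold change of 0.48 (-0.56 to 1.53). Of all genes, 2.59% were higher and 2.06% lower at that p, so 0 among so few genes is near those shares.

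Of the 34 genes that couple receptors to cyclic AMP, 3 were higher with dopamine at an unadjusted p under 0.05 over both formats and 0 were lower, beside 2.59% and 2.06% of all genes tested. In 2DMono, 5 were higher and 0 lower, beside 1.53% and 1.23% of all genes. In 3DMono, 1 was higher and 0 lower, beside 2.2% and 1.76%. The list's median log2 fold change was 0.03 over both formats, 0.11 in 2DMono and 0.00 in 3DMono, close to the 0.01 and -0.02 of all genes in each format.

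PDE10A, a phosphodiesterase of cyclic AMP and cyclic GMP that is abundant in striatal neurons, led this list. It stood at 483 and 669 CPM in the 2DMono dopamine tags against 254 and 256 in vehicle, and at 396 and 395 in the 3DMono dopamine tags against 353 and 343. Both dopamine tags lay above both vehicle tags in each format. The log2 fold change was 1.18 (0.79 to 1.57) in 2DMono, with an adjusted p of 0.227 by edgeR's quasi-likelihood test, and 0.18 (-0.20 to 0.57) in 3DMono. The difference between formats was -0.99 with an unadjusted p of 0.00214 and an adjusted p of 1 by the same edgeR fit. DESeq2 called PDE10A in 2DMono at an adjusted p of 1.66e-04.

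GNAL, the G protein alpha subunit that D1 receptors use in the striatum, stood at 63.3 and 77.7 CPM against 45.1 and 40.1 in 2DMono. In 3DMono it stood at 44.6 and 37.7 against 42.2 and 37.9, so the tags were apart in the flat cultures and overlapped in the organoids. PDE7B, another phosphodiesterase of cyclic AMP, stood at 23.1 and 53.7 against 13.4 and 21.1 CPM in 2DMono, and at 62.8 and 22.4 against 24.4 and 24.6 in 3DMono. Its log2 fold change was 1.00 (0.22 to 1.78), and the 3DMono tags overlapped, with 1 dopamine tag far above the other. GNAO1, an inhibitory G protein subunit, had a log2 fold change of 0.22 (-0.06 to 0.50) over both formats.

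Genes that CREB switches on were higher in part. Of 20 tested CREB targets, 6 were higher and 1 lower over both formats at an unadjusted p under 0.05, beside 2.59% and 2.06% of all genes, and 4 had both dopamine tags above both vehicle tags in each format, beside 2.31% of all genes. The list's median log2 fold change was 0.24. PER1, a clock gene with cyclic AMP response elements, stood at 39.3 and 64.1 CPM against 35.1 and 25.5 in 2DMono, and at 33.9 and 30.5 against 15.3 and 18.7 in 3DMono. It was higher in all 4 dopamine tags than in both vehicle tags of the same format, with a log2 fold change of 0.85 (0.46 to 1.23). Its adjusted p was 0.992 by edgeR's quasi-likelihood test and 0.0361 by DESeq2.

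NR4A2, an orphan nuclear receptor that is both an immediate early gene and a gene of midbrain dopamine neurons, was also apart in both formats. It stood at 13.2 and 9.16 CPM against 5.81 and 5.87 in 2DMono and at 19.8 and 18.2 against 14.9 and 6.04 in 3DMono, a log2 fold change of 0.87 (0.30 to 1.43). NR4A1, its relative, stood at 19.1 and 24.9 against 20.1 and 15.6 CPM in 2DMono and at 41.1 and 27.5 against 17.5 and 20.9 in 3DMono. Its 2DMono tags overlapped and its 3DMono tags were apart. FOSL1, a partner in the AP-1 transcription factor, stood at 7.29 and 7.11 against 4.19 and 4.25 CPM in 2DMono and at 1.38 and 1.54 against 0.804 and 1.28 in 3DMono, apart in both. PENK, the precursor of the enkephalin peptides, was the 1 member lower at an unadjusted p under 0.05, with a log2 fold change of -1.11 (-2.00 to -0.21), and 5 of the 20 lay below 0. It stood at 4.47 and 3.99 against 9.84 and 5.47 CPM in 2DMono, apart. Its 3DMono tags overlapped, at 0.259 and 0.576 against 1.75 and 0.366 CPM, and without the first 3DMono vehicle tag the log2 fold change was -0.70 with an unadjusted p of 0.0871 by edgeR.

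Immediate early genes had more members with higher values in the organoids than in the flat cultures, a difference between lists that was not tested. Of 27 tested, 20 had log2 fold changes above 0 over both formats and 7 below, and 7 were higher and 0 lower at an unadjusted p under 0.05, beside 2.59% and 2.06% of all genes. In 3DMono 25 lay above 0 and 2 below, with a median of 0.43, and 7 were higher and 0 lower at that p, beside 2.2% and 1.76%. In 2DMono 13 lay above 0 and 14 below, with a median of -0.05, and 4 were higher and 2 lower, beside 1.53% and 1.23%. Those 2 were JUN and JUND, with log2 fold changes of -0.44 and -0.78; they were picked out after their values were seen. NPAS4, a transcription factor induced by calcium in active neurons, stood at 21.9 and 19.8 CPM against 13.8 and 8.30 in 2DMono and at 16.6 and 4.16 against 2.27 and 3.29 in 3DMono. All 4 dopamine tags lay above the vehicle tags of their format, and the log2 fold change was 1.36 (0.45 to 2.26). Without the first 3DMono dopamine tag it was 0.78. The 3DMono list also held ARC, a synaptic immediate early gene, with a log2 fold change of 1.63 and EGR3 with 1.06, again picked out after their values were seen. Several immediate early genes are also CREB targets, so these 2 lists share members and are not separate evidence.

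EGR1, a zinc finger transcription factor and immediate early gene, was chosen for description after its values were seen. It stood at 263 and 217 CPM in the 3DMono dopamine tags against 134 and 109 in vehicle, and at 50.1 and 47.3 against 56.7 and 42.9 in 2DMono. The organoid tags were apart and the flat tags overlapped. The log2 fold change was 0.98 (0.57 to 1.39) in 3DMono and -0.05 (-0.47 to 0.38) in 2DMono. The adjusted p in 3DMono was 1 by edgeR's quasi-likelihood test and 0.0256 by DESeq2, and the difference between formats was 1.03 (0.43 to 1.62) with an unadjusted p of 0.00305 and an adjusted p of 1 by edgeR. In 3DMono, 17.1% of all genes had both dopamine tags above both vehicle tags, so that separation by itself is common.

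**Figure D1:**
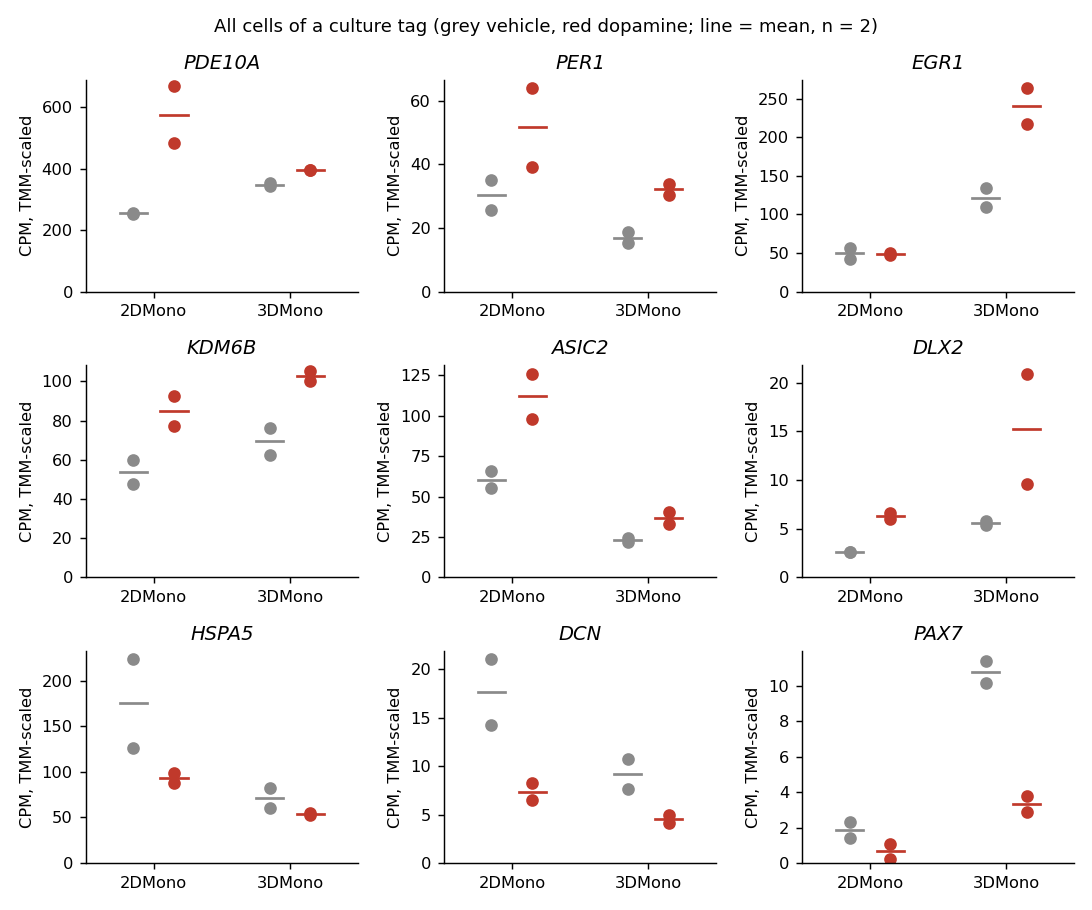
Level of 9 genes in all cells of each culture tag (CPM after TMM scaling; 1 point per tag, line at the mean of 2 tags, grey vehicle, red dopamine). PDE10A and DLX2 were apart in both formats, PDE10A more widely in 2DMono (483 and 669 against 254 and 256 CPM). EGR1 was apart in 3DMono (263 and 217 against 134 and 109 CPM).

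The promoters of these 2 genes are shown because PDE10A and EGR1 are the genes on which the class results below turn. Each run is the 250 bases before the start of transcription in RefSeq's table for GRCh38.p14, written on the gene's strand. Capitals mark matches, on either strand, to the cyclic AMP response element TGACGTCA, its core TGACG, the AP-1 site TGANTCA and the antioxidant response element TGACNNNGC. A core match lies inside every full cyclic AMP response element.
EGR1, chr5:138465229-138465478, plus strand: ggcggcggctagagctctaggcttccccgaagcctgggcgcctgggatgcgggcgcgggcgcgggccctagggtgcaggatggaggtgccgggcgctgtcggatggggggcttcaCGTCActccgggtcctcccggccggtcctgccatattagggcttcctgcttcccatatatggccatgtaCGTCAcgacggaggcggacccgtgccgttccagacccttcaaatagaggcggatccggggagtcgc
PDE10A, chr6:165663242-165663491, minus strand: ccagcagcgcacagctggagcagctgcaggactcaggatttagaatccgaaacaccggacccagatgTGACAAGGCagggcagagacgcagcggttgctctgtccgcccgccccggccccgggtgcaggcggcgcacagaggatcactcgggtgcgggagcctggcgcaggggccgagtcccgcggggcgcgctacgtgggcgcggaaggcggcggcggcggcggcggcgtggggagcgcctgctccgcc
The EGR1 window held 2 core matches, both on the opposite strand, and the PDE10A window held 1 antioxidant response element match and no core match. Among 13215 tested genes with a promoter in the table, 27.8% held the core, 2.66% the full element, 4.44% the AP-1 site and 11.8% the antioxidant response element. The core was found in 13 of 20 immediate early promoters (65%), in 8 of 16 CREB target promoters (50%) and in 0 of the 4 genes called in astrocyte-like cells. The AP-1 site was found in 0 of the 20 and 0 of the 16. The antioxidant response element was found in 3 of the 20 (15%), 7 of the 16 (43.8%) and 1 of the 4. Matches describe letters in this window and no binding was measured.

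Some genes of the unfolded protein response, the chaperones and folding enzymes made when the endoplasmic reticulum is loaded, had lower values in the flat dopamine tags. Of 15 members, 8 were lower and 0 higher in 2DMono at an unadjusted p under 0.05, beside 1.23% and 1.53% of all genes, and the list's median log2 fold change was -0.76. In 3DMono 0 were lower and 0 higher, beside 1.76% and 2.2% of all genes, with a median of -0.05. For 15 genes, 0 is near those shares. HSPA5, the main chaperone of that compartment, stood at 98.8 and 87.8 CPM in the 2DMono dopamine tags against 224 and 127 in vehicle, a log2 fold change of -0.92 (-1.49 to -0.35). In 3DMono it stood at 52.9 and 54.7 against 81.8 and 60.2, so the dopamine tags lay below the vehicle tags in both formats. PDIA6, a disulfide isomerase, stood at 56.2 and 41.7 against 109.5 and 59.1 CPM in 2DMono, where the tags were apart. MANF, a secreted stress factor, stood at 5.18 and 2.91 against 13.6 and 4.25, where they overlapped. XBP1, the transcription factor spliced in this response, stood at 6.82 and 5.82 against 17.5 and 11.1 CPM in 2DMono and at 8.97 and 7.56 against 6.14 and 6.04 in 3DMono. It was chosen after its values were seen, and its difference between formats was 1.66 with an unadjusted p of 0.00248 and an adjusted p of 1 by edgeR.

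The first 2DMono vehicle tag had the highest value of HSPA5, PDIA6, MANF and XBP1, and the highest mitochondrial share of counts (5.14% against 2.27% to 3.28% in the other 2DMono tags). Without that tag, HSPA5 in 2DMono had a log2 fold change of -0.44 and XBP1 one of -0.83, and over both formats HSPA5 had -0.42 and PDIA6 -0.29. With cells above 5% of mitochondrial counts left out, HSPA5 stayed at -0.92 and XBP1 at -1.27. How far that tag's other differences enter the list was not tested.

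Genes of other stress responses are counted over both formats at an unadjusted p under 0.05, where 2.59% of all genes were higher and 2.06% lower. Among 23 tested NRF2 targets, which answer oxidation, 0 were higher and 0 lower, while 16 had log2 fold changes below 0, with a median of -0.06. NQO1, the usual marker of that response, had a log2 fold change of -0.42 (-0.89 to 0.05). Among 16 other antioxidant genes 15 lay below 0, with a median of -0.28, and 1 was lower at that p, GPX1, a glutathione peroxidase, with -0.86 (-1.69 to -0.03). The 9 metallothionein genes had too few counts to be tested. Of 14 heat shock genes, 12 lay below 0, with a median of -0.25, and 2 were lower and 0 higher: CRYAB, a small chaperone, had a log2 fold change of -0.88 (-1.38 to -0.39), and DNAJA1, a cochaperone, had -0.37 (-0.72 to -0.03). Of 20 genes of the integrated stress response, 2 were higher and 0 lower, namely CHAC1 with 0.98 (0.22 to 1.75) and SLC7A5, an amino acid transporter, with 0.46 (0.10 to 0.82). Of 16 p53 targets 1 was lower and 0 higher, and of 13 genes encoded by mitochondria 0 were higher or lower.

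**Figure D2:**
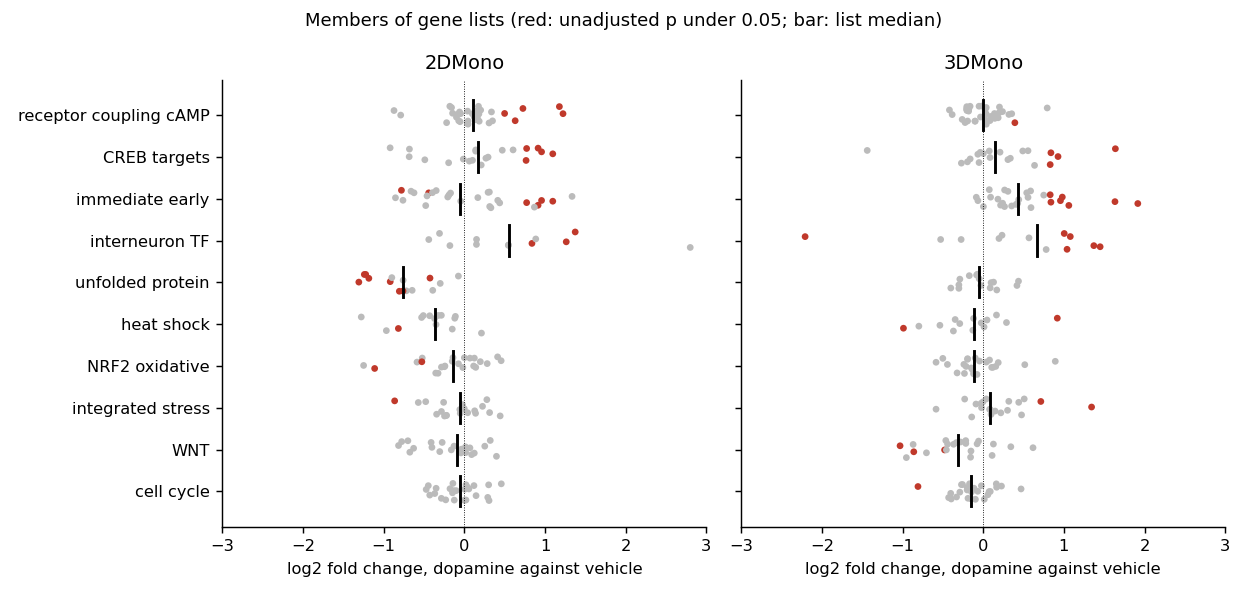
Log2 fold change, dopamine against vehicle, of each tested member of 10 gene lists in 2DMono (left) and 3DMono (right); red points have an unadjusted p under 0.05 and the bar is the list's median. The unfolded protein list has its median at -0.76 in 2DMono and -0.05 in 3DMono, and the immediate early list at -0.05 and 0.43.

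Some transcription factors of interneuron development had higher values in dopamine tags. Of 12 tested, 5 were higher and 0 lower at an unadjusted p under 0.05 over both formats, beside 2.59% and 2.06% of all genes, and 3 of the 12 had log2 fold changes below 0. In 3DMono 5 were higher and 1 lower, beside 2.2% and 1.76% of all genes. In 2DMono 3 were higher and 0 lower, beside 1.53% and 1.23%. The list's median log2 fold change was 0.52 over both formats. DLX2, a homeobox gene of the ganglionic eminences, stood at 6.59 and 6.03 CPM against 2.60 and 2.63 in 2DMono, and at 20.9 and 9.604 against 5.37 and 5.76 in 3DMono. The tags were apart in both, as they were for 2.31% of all genes in the higher direction. The log2 fold change was 1.37 (0.81 to 1.93), and the adjusted p was 0.714 by edgeR's quasi-likelihood test and 0.00592 by DESeq2. DLX1 and DLX5 had log2 fold changes of 0.95 (0.47 to 1.43) and 1.17 (0.57 to 1.78). GABAergic neuron-like cells were 13.9% and 6.48% of cells in the 2DMono dopamine tags against 5.16% and 5.05%, and 12.2% and 3.98% against 3.70% and 4.35% in 3DMono. The part of these shares in the gene values was not tested. In bulk sums, more cells of a type and more RNA per cell cannot be told apart.

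Other developmental lists held a few members past an unadjusted p of 0.05, which 2.59% of all genes passed in the higher and 2.06% in the lower direction over both formats. Of 22 tested genes of WNT signalling 3 were lower and 0 higher over both formats. RSPO2, a secreted enhancer of WNT signalling, stood at 209 and 440 CPM against 364 and 505 in 2DMono, where the tags overlapped, and at 51.3 and 57.1 against 105 and 92.1 in 3DMono, where they were apart. Of 26 cell cycle genes 2 were lower and 0 higher. CCND1, the cyclin of early G1, stood at 22.4 and 18.2 against 34.5 and 20.5 CPM in 2DMono and at 12.9 and 13.2 against 25.4 and 20.1 in 3DMono, overlapping in the first and apart in the second. Of 22 collagen and matrix genes 1 was lower, DCN, a matrix proteoglycan, at 8.24 and 6.46 against 14.2 and 21.1 CPM and at 4.92 and 4.098 against 10.7 and 7.59. The tags were apart in both formats, as they were for 2.72% of all genes in the lower direction, with a log2 fold change of -1.14 (-1.61 to -0.68) and an adjusted p of 0.714 by edgeR and 0.00375 by DESeq2. The count for collagen and matrix genes as a list is near the share of all genes. Mesenchymal-like cells were 1.14% and 3.46% against 1.48% and 5.68% of cells in 2DMono, and 6.50% and 4.95% against 6.63% and 7.40% in 3DMono.

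Receptors for transmitters were counted at the same unadjusted p over both formats. Of 22 glutamate receptor genes 1 was higher and 1 lower, near the 2.59% and 2.06% of all genes. GRIN1, the obligate NMDA receptor subunit, stood at 19.8 and 25.7 CPM in the 3DMono dopamine tags against 7.64 and 11.2 in vehicle, apart, and at 7.06 and 8.51 against 9.36 and 5.87 in 2DMono, overlapping. GRM8, a metabotropic receptor, had a log2 fold change of -0.73 (-1.45 to -0.01). Of 17 tested receptor genes for GABA and glycine, 0 were higher or lower over both formats.

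Other genes were chosen after their values were seen, because DESeq2 called them over both formats. ASIC2, an acid-sensing ion channel, stood at 126 and 98.0 CPM against 66.1 and 55.1 in 2DMono and at 40.6 and 32.8 against 22 and 24.3 in 3DMono. KDM6B, a histone H3 demethylase, stood at 77.2 and 92.3 against 59.8 and 47.4 in 2DMono and at 105.3 and 100.1 against 62.6 and 76.5 in 3DMono. In both genes all 4 dopamine tags lay above the vehicle tags of their format. PAX7, a dorsal neural and muscle precursor factor, stood at 0.235 and 1.08 CPM against 2.30 and 1.42 in 2DMono and at 3.795 and 2.88 against 10.2 and 11.4 in 3DMono, lower in all 4 dopamine tags. Their log2 fold changes were 0.77 (0.48 to 1.07), 0.61 (0.34 to 0.88) and -1.60 (-2.24 to -0.95), with edgeR adjusted p-values of 0.714 for ASIC2, 0.965 for KDM6B and 0.714 for PAX7.

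To look within kinds of cell, the cells were clustered and clusters were named after marker lists, with "-like" to mark that the name rests on markers. Shares of named classes did not pass the test. Averaged over the formats, the widest difference between dopamine and vehicle tags was that of the neuron classes together, at 5.36 percentage points. Its exact permutation p was 0.5 (two-sided), where tags were exchanged within formats. In 2DMono alone, astrocyte-like cells differed by -7.55 points and the neuron classes by 6.62. GABAergic neuron-like cells were 4.58 points higher, with an exact permutation p of 0.111 and an adjusted p of 0.9 over the 9 classes. The smallest p this exact permutation test can give here is 0.0556, before any adjustment. Astrocyte-like cells were found almost wholly in 2DMono, at 25% and 46% of cells with dopamine against 34.0% and 52.1% with vehicle, and the tags overlapped.

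**Figure D3:**
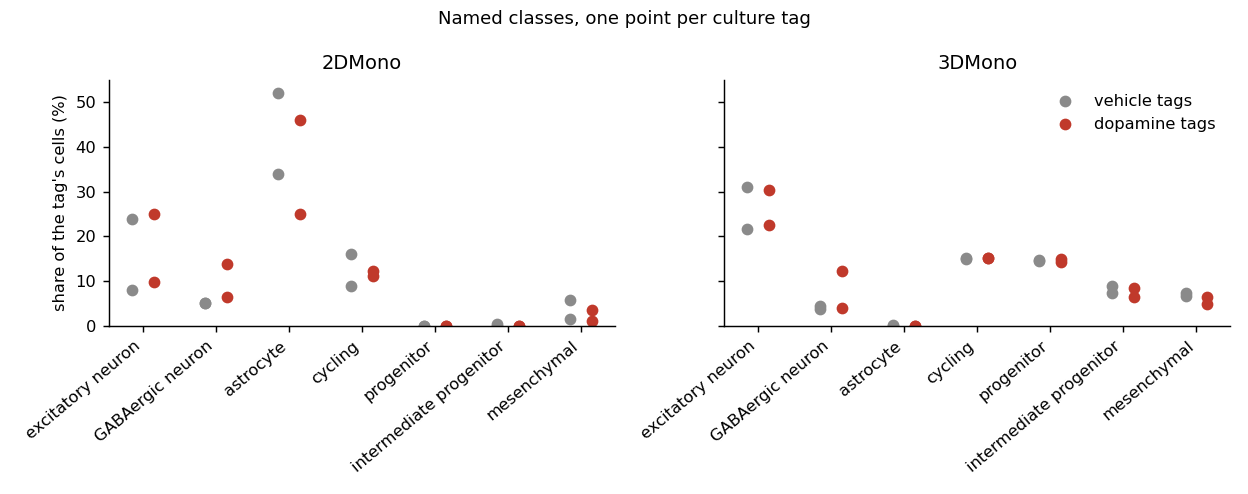
Share of each tag's cells in 7 named classes (percent; 1 point per tag, grey vehicle, red dopamine) in 2DMono (left) and 3DMono (right). GABAergic neuron-like cells reach 13.9% and 12.2% in the first dopamine tag of each format, and shares of progenitor-like cells lie between 14.3% and 14.9% in 3DMono.

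Astrocyte-like cells of the flat cultures, a name with limits given below, were the class with the most calls. Of 15338 genes tested there, 4 rose with dopamine (0.0261%) and 0 fell, by edgeR's quasi-likelihood test with Benjamini-Hochberg adjustment. They were PDE10A, SV2C, PAPPA and PHLDB2, named here after the calls were seen. PDE10A stood at 472 and 691 CPM in dopamine tags against 105 and 96.3 in vehicle, a log2 fold change of 2.53 (2.03 to 3.03; edgeR adjusted p = 0.00479). SV2C, a glycoprotein of synaptic vesicles, stood at 217 and 219 CPM against 45.9 and 39.6, a log2 fold change of 2.34 (1.90 to 2.77; edgeR adjusted p = 0.00479). In both genes the 2 dopamine tags lay far above the 2 vehicle tags, and the dopamine tags lay closer together for SV2C than for PDE10A. PAPPA, a secreted protease that frees insulin-like growth factors from their binding proteins, stood at 335 and 302 CPM against 106 and 108 (log2 fold change 1.57, 1.17 to 1.97; edgeR adjusted p = 0.0225). PHLDB2, a protein of the cell cortex, stood at 219.6 and 212 CPM against 73.3 and 69.99 (log2 fold change 1.59, 1.18 to 1.99; edgeR adjusted p = 0.0225).

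PDE10A and SV2C were called in 8 of 9 other settings, and PAPPA and PHLDB2 in 7 of 9. In the 4 fits that left out a tag, the log2 fold changes were 2.25 to 2.78 for PDE10A and 2.24 to 2.48 for SV2C. They were 1.5 to 1.67 for PAPPA and 1.55 to 1.64 for PHLDB2. Such a fit rests on a lone tag in a group and called more genes than the full fit. Its calls therefore cannot show that a result holds. With cells above 5% of mitochondrial counts left out, PAPPA had a log2 fold change of 1.77 and an edgeR adjusted p of 0.187, and PHLDB2 1.93 and 0.385. The median mitochondrial share of these cells was 6.06% and 1.83% in dopamine tags and 6.62% and 1.75% in vehicle tags, and its part in the calls was not tested. The class had 88 and 213 cells in dopamine tags and 667 and 165 in vehicle tags.

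The class split at a finer clustering, an alternative chosen after seeing the data, and the cells that kept its name gave no call. At resolution 1.2, 548 of its 1133 cells kept the name, 312 lay in a cluster named cycling-like and 273 in unnamed clusters. Of the 273, 262 lay in a cluster whose best-matching list was the mesenchymal one. It carried COL1A1, COL3A1 and PDGFRB, too few markers for a name. In the astrocyte-like cells of that resolution edgeR called 0 of 11609 genes, with 304 at an unadjusted p under 0.05. The log2 fold changes there were 2.19 for PDE10A, 1.61 for SV2C, 1.29 for PAPPA and 2.06 for PHLDB2, each with an edgeR adjusted p of 1. The cycling-like cells of 2DMono at that resolution were the 312 cells named above and 2 others. They gave 4 calls, among them PDE10A, PAPPA and SV2C. Those 3 genes were thus called again in part of the same cells under another class name. The cluster of the 312 cells carried 5 cycling markers, but its 10 leading genes, which include CCN2, PDGFB and ALPK2, hold none of them.

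At the resolution used here the class is made of 2 clusters. The larger carried GFAP, S100B, ALDH1L1, GJA1 and CD44 as markers, and none of its 10 leading genes, which include EFEMP1, BMP6, LTBP2 and CCN2, is an astrocyte marker. There PDE10A stood at 498 and 681 CPM of the cluster's counts with dopamine against 88.2 and 93.1, and SV2C at 239 and 225 against 44.4 and 44.3. In the smaller, led by GFAP, ALDH1L1 and AQP4, PDE10A stood at 315 and 520 against 167 and 259, apart, and SV2C at 54.8 and 6.06 against 19.0 and 13.2, overlapping. The 8 astrocyte markers summed to 764 and 735 CPM in dopamine tags and 773 and 687 in vehicle tags of this class. The 8 mesenchymal markers summed to 1776 and 1877 against 1488 and 1148, and the 8 choroid plexus markers to 259.8 and 159.8 against 279 and 403. In 2DMono cycling-like cells the astrocyte markers summed to 613.5 and 834.9 against 650 and 723, and the mesenchymal markers to 49.9 and 65.6 against 30.2 and 26.2. The astrocyte sum thus did not set this class apart from the cycling-like cells, while the mesenchymal sum did. The part of these marker differences, between tags or classes, in the calls was not tested.

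PDE10A lay closer together between the groups in neurons. In the neuron classes of 2DMono it stood at 419 and 416 CPM against 389 and 371, a log2 fold change of 0.13 (-0.23 to 0.50), and in those of 3DMono at -0.05 (-0.40 to 0.30). Neurons are the cells in which this enzyme is best known. No test compared the 2 classes, whose cells come from the same tags.

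**Figure D4:**
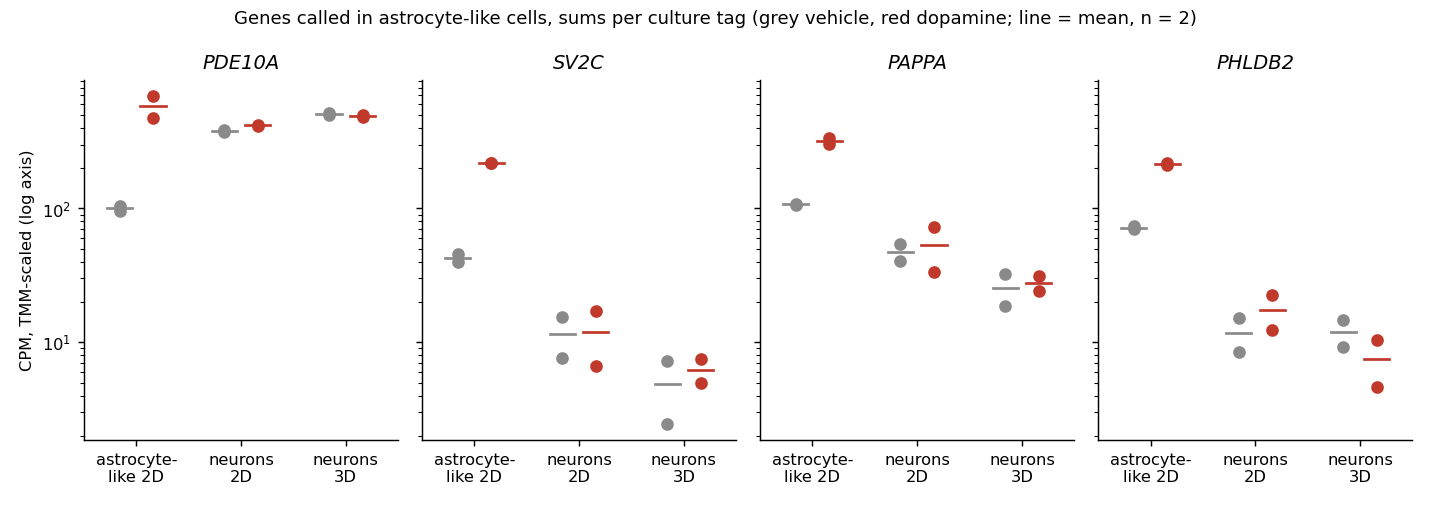
Level of the 4 genes called in astrocyte-like cells of 2DMono, beside the neuron classes of 2DMono and 3DMono (CPM on a log axis; 1 point per tag, line at the mean of 2 tags, grey vehicle, red dopamine). In astrocyte-like cells PDE10A stands at 472 and 691 against 105 and 96.3 CPM; in 2DMono neurons it stands at 419 and 416 against 389 and 371.

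Of 31 tested cyclic AMP coupling genes in these astrocyte-like cells, 3 were higher and 1 lower at an unadjusted p under 0.05, beside 2.03% and 1.17% of all genes in the class, and the list's median log2 fold change was -0.07. PDE10A, already called, is among the 3. Some single genes were apart without passing the adjusted test. PDE3A, a further phosphodiesterase, stood at 133 and 121 CPM against 51.8 and 44.4, with an edgeR adjusted p of 0.0916. GNAL stood at 100.4 and 95.7 against 46.8 and 42.2, with an edgeR adjusted p of 0.291. LRP2, an endocytic receptor, stood at 128 and 216 against 37.2 and 45.9, and EPAS1, a hypoxia-inducible transcription factor, at 80.4 and 63.5 against 19.3 and 14.8, both with an edgeR adjusted p of 0.0552. All of these were chosen after their values were seen, and in each the 2 dopamine tags lay above the 2 vehicle tags. Of 18 tested CREB targets, 6 were higher and 0 lower at an unadjusted p under 0.05, with a median of 0.38. They included NR4A2 at 13.3 and 10.97 CPM against 3.12 and 4.81 and PER1 at 73.2 and 78.6 against 47.6 and 33.0. BDNF, a neurotrophin, stood at 9.98 and 13.1 against 5.84 and 5.56.

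In the organoids, cycling-like cells gave 2 calls among 12957 genes (0.0154%). EGR1 rose from 200.1 and 199 CPM in vehicle tags to 521 and 488 in dopamine tags, a log2 fold change of 1.34 (0.91 to 1.76; edgeR adjusted p = 0.0313). NR2F2-AS1, a noncoding RNA beside the nuclear receptor gene NR2F2, fell from 29.1 and 30.02 CPM to 3.22 and 1.59, a log2 fold change of -3.61 (-4.80 to -2.41; edgeR adjusted p = 0.0313). The tags were apart in both genes, which were named after the calls were seen. The class held 1563793 and 1930114 counts in the dopamine tags, so the NR2F2-AS1 values there rest on few counts. Whether counting used strand is not given, so reads of NR2F2-AS1 and its neighbour may not be separable. EGR1 was called in 4 of 8 other settings and in 4 of 8 fits that left out a tag, with log2 fold changes of 1.30 to 1.41 in those 8. The 4 fits that called it left out a 2DMono tag, and leaving out any of the 4 3DMono tags gave edgeR adjusted p-values of 0.0625 to 0.294. NR2F2-AS1 was called in 3 of 8 settings and in 5 of 8 such fits, of which 1 left out a 3DMono tag. At a clustering resolution of 0.4 its log2 fold change was -1.45. At 1.2, edgeR's adjusted p was 0.142 for EGR1 and 0.0755 for NR2F2-AS1.

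In the cycling-like cells of 2DMono, EGR1 stood at 28.5 and 9.604 CPM against 24.5 and 22.2, and the tags overlapped. The difference between formats in this class was 1.84 (0.94 to 2.74), with an unadjusted p of 0.000442 and an adjusted p of 0.955 by edgeR. The class holds 3 clusters, of which 1 lies mostly in 3DMono, 1 wholly in 2DMono and 1 in both. The median mitochondrial share of its 3DMono cells was 3.30% and 3.06% in dopamine tags and 1.56% and 2.43% in vehicle tags, and its part in the calls was not tested. With cells above 5% left out, EGR1 had a log2 fold change of 1.31 and an edgeR adjusted p of 0.0819.

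EGR1 was higher with dopamine across most organoid clusters. Both dopamine tags lay above both vehicle tags in 9 of 12 clusters, and the tags overlapped in the other 3. Cluster 14, where 93.7% of cells were called doublets, is among the 9. Over whole 3DMono tags 17.1% of all genes were apart in that direction, and the share within clusters was not counted. In progenitor-like cells, which carry PAX6, VIM, FABP7, SLC1A3 and HOPX, it stood at 495 and 619.6 CPM against 269.8 and 259, a log2 fold change of 1.08 (0.73 to 1.43). The adjusted p there was 0.109 by edgeR, which called 0 of 11840 genes (0%), with 650 at an unadjusted p under 0.05, while DESeq2 called EGR1 alone. In mesenchymal-like cells it stood at 412 and 425 against 241 and 194, with a log2 fold change of 0.93 (0.42 to 1.44). The clusters share their tags, so they are not independent of each other.

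**Figure D5:**
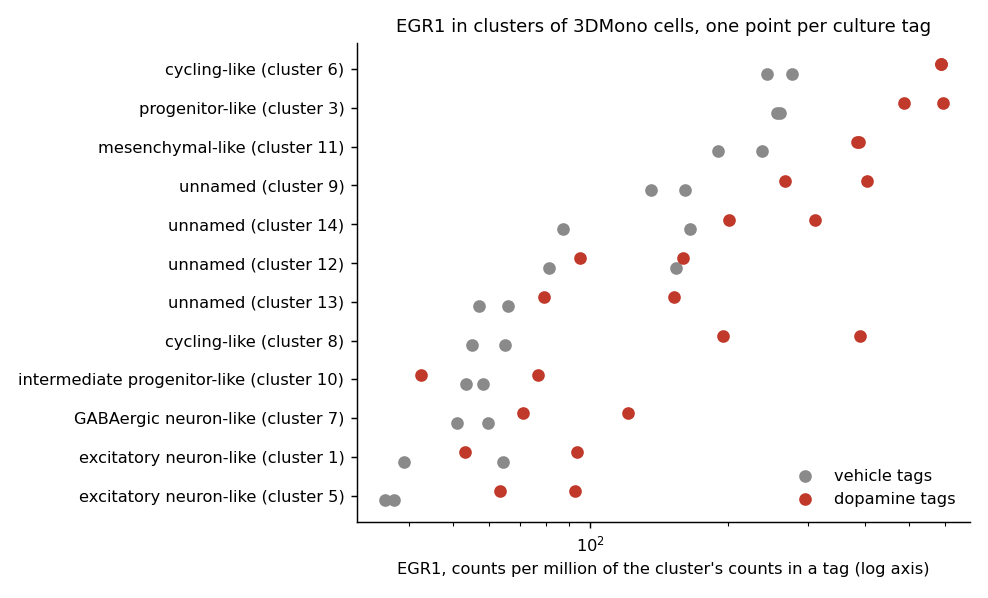
EGR1 in 12 clusters of 3DMono cells (CPM of the cluster's counts in a tag, log axis; 1 point per tag, grey vehicle, red dopamine). Dopamine tags lie above vehicle tags in 9 clusters, for example at 488 and 592 against 261 and 257 in the progenitor-like cluster 3, and overlap in clusters 1, 10 and 12. The 9 include cluster 14, where 93.7% of cells were called doublets.

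Immediate early genes, EGR1 included, were counted in the same organoid classes. Of 16 tested in cycling-like cells, 3 were higher at an unadjusted p under 0.05, beside 2.39% of all genes in the class. Of 14 in progenitor-like cells, 4 were higher, beside 3.18%, and of 19 in mesenchymal-like cells, 6 were higher, beside 2.47%. None was lower in these classes. EGR1 itself, already chosen, is among those counted as higher in each class. Sums of the marker lists of cell types were set beside these. Over whole 3DMono tags, both dopamine tags lay above both vehicle tags for 17.1% of genes and below them for 3701 of 21300. Those shares were not counted within classes. In 3DMono progenitor-like cells 2 of 20 lists were higher and 8 lower in both dopamine tags than in both vehicle tags. The 8 GABAergic neuron markers summed to 279 and 249 CPM in dopamine tags against 89.8 and 148, and the 8 astrocyte markers to 222 and 216 against 247 and 295. The 9 progenitor markers summed to 2027 and 2232 against 2815 and 2336, and the 8 cycling markers to 62.8 and 99.8 against 103.9 and 122. In 3DMono cycling-like cells 1 list was higher and 4 lower in that sense, and in mesenchymal-like cells 1 was higher and 1 lower. The counts in those 2 classes are near or below the shares of whole tags. In the cycling-like cells the GABAergic neuron markers overlapped, at 669 and 277 against 216 and 305, and the neuron markers were narrowly apart, at 1879 and 1714 against 2037 and 1894, while the 7 intermediate progenitor markers were apart at 92.8 and 69.97 against 124 and 103. Their part in the EGR1 and immediate early values was not tested. EGR3 stood at 12.3 and 13.8 CPM against 2.38 and 4.62 in progenitor-like cells, and FOS, the founding immediate early gene, at 138 and 159 against 116 and 92.4. FASN, fatty acid synthase, stood at 182 and 140.1 against 60.8 and 78.5 in progenitor-like cells, with a log2 fold change of 1.24 (0.76 to 1.71) and an edgeR adjusted p of 0.239. SV2C in the organoids' mesenchymal-like cells stood at 153.5 and 47.2 CPM against 8.41 and 8.74, with an adjusted p of 1 by edgeR, which called 0 of 10046 genes (0%), with 449 at an unadjusted p under 0.05; DESeq2 called 4 genes there, SV2C among them. FASN and SV2C were chosen after their values were seen.

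Neurons, the main targets of dopamine in the brain, gave 0 calls among 15089 genes over both formats (0%) by edgeR, with 654 at an unadjusted p under 0.05, and DESeq2 called DLX2 and MGST1. MGST1, a glutathione transferase of membranes, was chosen after its values were seen. It stood at 41.7 and 42.6 CPM in the 2DMono dopamine tags against 102 and 108 and at 492 and 419 in the 3DMono dopamine tags against 931 and 584. It was lower in all 4 dopamine tags, with a log2 fold change of -0.95 (-1.31 to -0.59) and an edgeR adjusted p of 0.352. GAD1, which makes GABA, stood at 91.0 and 95.8 against 33.4 and 45.4 in 2DMono and at 97.1 and 54.3 against 24.5 and 48.0 in 3DMono. The neuron classes mix excitatory and GABAergic neuron-like cells in different proportions: the latter were 49 of 137 and 30 of 75 neurons in the 2DMono dopamine tags against 101 of 567 and 16 of 41, and 77 of 219 and 45 of 388 in the 3DMono dopamine tags against 57 of 536 and 30 of 179. The part of these proportions in the GAD1 and DLX2 values was not tested. Of 14 unfolded protein response genes, 7 were lower and 0 higher in 2DMono neurons, with a median log2 fold change of -1.03, beside 2.07% of all genes lower. HYOU1, a chaperone of that compartment, stood at 13.3 and 13.3 CPM against 38.4 and 30.3, and HSPA5 at 20.9 and 10.6 against 48.6 and 27.7. In 3DMono neurons 0 of the 14 were lower and 0 higher, beside 156 lower and 387 higher of all 15089 genes.

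Morphine tags (AcMor) of the same formats share the vehicle tags, so their values are only set beside these, scaled by totals alone. PDE10A in 2DMono stood at 438 and 608 CPM with dopamine, 303 and 287 in the AcMor tags and 224 and 251 with vehicle. SV2C stood at 135 and 162, 51.5 and 53.2, and 49.2 and 77.2 in the same order. EGR1 in 3DMono stood at 288 and 232 with dopamine, 272 and 231 in the AcMor tags and 144 and 119 with vehicle. DLX2, a transcription factor of GABAergic neurons, stood in 3DMono at 22.8 and 10.3 with dopamine, 33.6 and 33.8 in the AcMor tags and 5.76 and 6.29 with vehicle. In 2DMono it stood at 5.97 and 5.49, 15.8 and 7.15, and 2.30 and 2.59 in the same order. KDM6B, a histone demethylase, stood at 69.9 and 84.0, 96.4 and 72.2, and 52.8 and 46.6 in 2DMono, and at 115 and 107, 119 and 91.3, and 67.1 and 83.4 in 3DMono. The AcMor tags thus lay near the vehicle tags for SV2C and near the dopamine tags for EGR1 in 3DMono, and above the vehicle tags in both formats for DLX2 and KDM6B; none of these differences was tested.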

How the data were processed

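The deposited matrix holds expected counts per gene and cell, estimated by the authors; Salmon 1.7.0, alevin, Seurat 4.1.1 and the build hg38 are named in the submitters' processing notes, with no role or order. Genes of antisense or overlapping transcripts were not separated further. No cell was removed here: the fewest genes per cell were 1154 and the highest mitochondrial share 10%. For each tag, or each tag and class with at least 20 cells in every tag, these estimates were added up and rounded to whole numbers. They were tested with edgeR 4.0.16 (TMM, filterByExpr, robust quasi-likelihood fit; R 4.3.3), with DESeq2 1.42.0 as an alternative. Format was a block over both formats, and each format was a contrast of 4 groups sharing 1 estimate of spread. Error ranges are 95% intervals of the log2 fold change, n = 2 tags a group. Tags of 1 group differed by far more than sampling noise (chi-square per degree of freedom 14.4 to 29.8). Doublets were scored against simulated pairs (536 cells, 7.57%) and kept, with their removal as an alternative. Clusters came from Leiden (leidenalg 0.10.2) at resolution 0.8 on 30 components of 2000 variable genes; a class needed at least 3 markers and 40% of its list, or the cluster stayed unnamed. Class shares were compared by exact permutation of tags within formats. The edgeR fit over whole tags was run on simulated data with the same spread for every gene. The fits within classes were not checked that way.

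The rule for named genes took called genes of the whole-tag fits, of which there were 0, every dopamine receptor, and up to 4 members of each of 28 lists with the lowest p over both formats; others are marked in the text. The comparison, lists and markers were chosen with earlier results of these data known. Promoters are from RefSeq's table (GRCh38.p14).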

Additional observations from a re-analysis of the deposited data

How the results depend on the processing

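The tag number may not pair tags: tags with the same number deviated together with r = 0.0933 in 2DMono and 0.0723 in 3DMono. With the number as a replicate block edgeR called 0 genes over both formats, 0 in 2DMono, 4 in 3DMono and 0 for the difference. In classes the block gave 2 calls in GABAergic neuron-like, 0 in cycling-like, 2 in intermediate progenitor-like, 14 in mesenchymal-like and 11 in progenitor-like cells of 3DMono, 10 in astrocyte-like, 4 in cycling-like and 2 in excitatory neuron-like cells of 2DMono, and 1 in cycling-like cells of both formats. For the difference between formats the block gave 1 call, in excitatory neuron-like cells.

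Without the filter on low counts, edgeR called 237 genes over both formats, 32 in 2DMono, 145 in 3DMono and 34 for the difference; 192, 27, 123 and 33 of them had passed the filter. DESeq2 called 12, 14, 19 and 4. Class settings other than doublets, resolution 0.4 and left-out tags were chosen after seeing the data. Without the filter, the classes of 3DMono gave 33 (GABAergic neuron-like), 10 (cycling-like), 9 (excitatory neuron-like), 18 (intermediate progenitor-like), 43 (mesenchymal-like), 12 (neuron classes) and 32 calls (progenitor-like). Those of 2DMono gave 52 (astrocyte-like), 30 (cycling-like), 4 (excitatory neuron-like) and 6 (neuron classes), and those over both formats 25 (cycling-like), 9 (excitatory neuron-like) and 20 (neuron classes). DESeq2 called 20 in astrocyte-like and 2 in cycling-like cells of 2DMono, 2, 1, 4 and 1 in GABAergic neuron-like, cycling-like, mesenchymal-like and progenitor-like cells of 3DMono, and 2 in the neuron classes of both formats. For the difference between formats, DESeq2 called 1 in the neuron classes and 1 in excitatory neuron-like cells. The fit without the filter called 6 in the neuron classes, 12 in cycling-like and 1 in excitatory neuron-like cells for that difference. In astrocyte-like cells, RLE size factors gave 7 and the largest cluster alone 9. In cycling-like cells of 3DMono, a mitochondrial share of at most 5% gave 0 and resolution 0.4 gave 0. Resolution 0.4 gave 1 in GABAergic neuron-like and 1 in excitatory neuron-like cells of 3DMono, 2 each in excitatory neuron-like cells and neuron classes of 2DMono, 1 in GABAergic neuron-like cells of both formats, and, for the difference between formats, 2 in the neuron classes and 1 in excitatory neuron-like cells. Resolution 1.2 gave 0 in astrocyte-like cells, 4 in cycling-like and 2 each in excitatory neuron-like cells and neuron classes of 2DMono, 1 in cycling-like cells of 3DMono and, for the difference, 2 in cycling-like and 1 in excitatory neuron-like cells. The share difference of progenitor-like cells turned from -0.0235 to 0.191 points at resolution 0.4 and 0.106 at 1.2.

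Leaving out a tag, which assumes that a lone tag varies like the others, gave 0 to 5 calls over both formats, 0 to 4 in 2DMono, 0 to 65 in 3DMono and 0 to 9 for the difference; the 65 came without the first 3DMono vehicle tag. Ranges were 20 to 71 in astrocyte-like cells, 0 to 3, 0 to 4 and 0 to 9 in cycling-like cells of 2DMono, 3DMono and both, 0 to 16, 0 to 12 and 0 to 38 in excitatory neuron-like cells, and 0 to 5, 0 to 5 and 0 to 22 in the neuron classes. They were 0 to 56 in GABAergic neuron-like, 1 to 43 in intermediate progenitor-like, 1 to 45 in mesenchymal-like and 9 to 109 in progenitor-like cells of 3DMono. The cause of these moves was not tested. Of 639 alternative values of named genes, 596 stayed on their side of the threshold, 43 came to pass it and 0 reversed. All tests rest on 2 tags a group.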

Other observations

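A few genes of other tissues had high sums in single tags that came from single cells. APOB, AFP and SI, genes of liver and gut, gave 275, 180 and 228 counts in the first 3DMono dopamine tag, and in each 1 cell held at least 20 counts and the 5 highest cells held 100% of the sum. The second 3DMono dopamine tag gave 52, 33 and 34 counts, again with 1 cell of at least 20, while the 3DMono vehicle tags gave 1 to 8 counts per gene. Skeletal muscle genes had high sums in a vehicle tag. TTN, the giant spring protein of the sarcomere, gave 22451 counts in the second 3DMono vehicle tag, where 15 cells held at least 20 counts and the 5 highest held 67.6%. The other 7 tags gave 219 to 2606. The 13 muscle-like cells all lay in that second vehicle tag, 1.89% of its cells.

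Of the unnamed clusters, cluster 9, with TTR and HTR2C among its leading genes, was 5.71% and 6.10% of cells in the 3DMono dopamine tags and 7.67% and 9.14% in vehicle tags. The 8 choroid plexus markers, which hold these 2 genes, summed to 175 and 742 CPM in the 3DMono dopamine tags and to 882 and 692 in vehicle. Cluster 14, where 93.7% of cells were called doublets, was 2.69% and 6.28% against 4.09% and 7.11%.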
